A study of Mus musculus with 6 samples.

Results

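The replication-dependent histone genes encode the bulk of the histone proteins on which DNA is wound. They were taken as all genes of the authors' normalized table whose symbol begins with Hist1h, Hist2h, Hist3h or Hist4h. This gave 67 of the 23525 genes in that table, of which 6 encode the linker histone H1, 18 H2A, 18 H2B, 12 H3 and 13 H4. They lie in 4 clusters of the mouse genome (GRCm38), with 53 named Hist1, 10 Hist2, 3 Hist3 and 1 Hist4. Of the Hist1 genes 52 lie between positions 21715763 and 23764406 of chromosome 13, and the pseudogene Hist1h2al lies apart on the same chromosome. The Hist2 genes lie between 96219865 and 96270132 of chromosome 3, the Hist3 genes on chromosome 11 and Hist4h4 on chromosome 6. By GENCODE biotype 65 members are protein-coding, and Hist1h2al and Hist3h2bb-ps are processed pseudogenes.

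Total RNA was measured in 6 cultures of mouse pancreatic tumour organoids, that is, of tumour epithelium grown in Matrigel. All came from KPC mice of the C57/Bl6 strain, whose cells carry KrasLSLG12D/+, Pdx1-Cre and a Trp53 R172H allele, so that Cre from the Pdx1 promoter of pancreatic progenitors removes a stop cassette (LSL) in front of the mutant alleles. In the 3 heterozygous libraries (Trp53LSLR172H/+) a wild-type Trp53 allele was kept, and in the 3 LOH libraries (Trp53LSLR172H/-, titled R172H/LOH for loss of heterozygosity) it was lost. Organoid lines 6, 23 and 34 each gave 1 library of either kind, so the p-values measure the spread between these cultures, and the ages of the mice are not given in the sources used here. The descriptions of the 3 LOH libraries, and of no heterozygous one, end in Nut, which no label explains, so that whatever it stands for and the genotype cannot be told apart.

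Histone messages of this kind are made mainly in S phase, when new DNA has to be packaged. They end in a short hairpin, the stem-loop, in place of a poly(A) tail. SLBP binds the hairpin, and the U7 small nuclear ribonucleoprotein guides the cut that follows it. NPAT, activated by cyclin E and CDK2, switches the clusters on from a nuclear compartment called the histone locus body. A library from total RNA keeps messages without a tail, which selection on poly(A) would lose.

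The stem-loop is what sets these messages apart, so 4 forms of it are shown here, 5′ to 3′ in DNA letters from the GENCODE gene models, with the 16 bases of the hairpin in capitals and 5 flanking bases on either side. The first form was found in 26 members of 4 classes, the second in 7 H4 genes, the third in 6 members and the fourth in Hist2h2ac alone.
Hist1h1d (chr13:23555782-23555807, plus strand): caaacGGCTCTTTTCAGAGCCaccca
Hist1h4d (chr13:23581945-23581970, plus strand): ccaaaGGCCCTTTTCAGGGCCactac
Hist1h2bb (chr13:23747198-23747223, plus strand): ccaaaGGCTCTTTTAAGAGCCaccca
Hist2h2ac (chr3:96220413-96220438, minus strand): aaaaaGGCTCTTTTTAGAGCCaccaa
A stem-loop of these or 4 other forms was found in the models of 46 of the 67 members, with 4 of 6 for H1, 11 of 18 for H2A, 10 of 18 for H2B, 9 of 12 for H3 and 12 of 13 for H4. Of the 21 members without a match in any model, 13 have models that end less than 16 bases after the stop codon, so a missing match says only that these letters are not in the model. Several models ran far past the hairpin, by 4884 bases in Hist1h1d and 840 in Hist1h1c.

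Promoters of 60 members were matched in the RefSeq table (GRCm38.p6, 250 bases before to 50 after the start). The letters CCAAT, on either strand, were present in 51 of the 60 (85%), against 37.4% of 32817 promoters in the table. All matched promoters of H1 (6), H2A (17), H2B (15) and H3 (10) held them, against 3 of 12 for H4. TATAAA on either strand was in 33 of 60 (55%) against 13.6% of all promoters, and the octamer ATTTGCAT in 11 of 60 (18.3%), all of them H2A or H2B genes, against 1.74%. No 2 different motifs overlapped in these promoters, and a match is a description and not a bound site. Of the 3 promoters shown, the first belongs to the H1 gene that was lower in LOH libraries, and the other two span the whole gap between an H2A gene and the H2B gene transcribed away from it. Capitals mark these motifs on either strand.
Hist1h1b (chr13:21780576-21780875, minus strand): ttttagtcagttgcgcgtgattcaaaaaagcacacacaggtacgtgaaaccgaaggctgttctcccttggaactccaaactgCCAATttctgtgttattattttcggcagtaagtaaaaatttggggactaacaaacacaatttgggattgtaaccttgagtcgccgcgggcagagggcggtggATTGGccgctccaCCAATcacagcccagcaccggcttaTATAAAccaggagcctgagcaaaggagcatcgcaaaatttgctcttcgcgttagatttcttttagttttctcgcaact
Hist2h2ac (chr3:96220831-96221130, minus strand): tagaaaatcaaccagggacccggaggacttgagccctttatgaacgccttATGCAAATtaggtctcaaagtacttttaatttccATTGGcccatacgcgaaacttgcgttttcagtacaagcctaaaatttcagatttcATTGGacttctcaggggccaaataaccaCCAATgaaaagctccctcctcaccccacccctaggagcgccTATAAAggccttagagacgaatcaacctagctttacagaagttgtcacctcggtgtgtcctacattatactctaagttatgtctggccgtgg
Hist1h2ac (chr13:23683910-23684209, minus strand): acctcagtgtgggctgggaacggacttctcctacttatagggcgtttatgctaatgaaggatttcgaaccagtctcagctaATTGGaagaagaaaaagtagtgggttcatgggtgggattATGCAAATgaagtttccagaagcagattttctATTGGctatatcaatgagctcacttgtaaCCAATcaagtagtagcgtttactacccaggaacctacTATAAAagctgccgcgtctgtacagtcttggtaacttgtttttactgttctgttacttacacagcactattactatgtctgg
In Hist1h1b the letters TATAAA begin at position -28 from the RefSeq start, with CCAAT or its reverse complement at -53, -66 and -168. In Hist2h2ac the same motifs begin at -42 and at -83, -111 and -166, and the octamer at -200. Hist2h2be, across that gap, had no promoter entry of its own.

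The libraries held 13680428 to 27917269 counts, and 3 counts were 0.1 to 0.223 CPM (counts per 1000000, scaled to the effective library size), a floor that covers counting error only. Trp53 averaged 80.01 ± 5.61 CPM with the wild-type allele and 57.8 ± 13.9 CPM without it (SD, n = 3 each; edgeR adjusted p = 0.227), and gene counts do not separate its alleles. All 8 epithelial markers were detected, at 5247 to 6084 CPM summed in heterozygous and 5176 to 11407 CPM in LOH libraries. The summed markers of fibroblasts (8 listed, 3 at 0 in every library) reached 1.11 CPM, of leukocytes (4 of 8 at 0) 14.9 CPM, of endothelium (1 of 4 at 0) 2.62 CPM and of acinar cells (1 of 5 at 0) 5.4 CPM, each highest in an LOH library. In bulk cultures fewer cycling cells and less histone RNA per cell cannot be told apart.

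Of the 67 members, 65 had enough counts to be tested. Hist1h1t, the testis H1, had 0 to 10 counts per library, and Hist1h2al had 0 to 2. The levels of the members spanned a wide range within each class. The TPM scale is per length of the gene model, so a model that runs far past the hairpin can give a lower value. On this scale mean levels over the 6 libraries reached 332 TPM for Hist1h1b among H1 genes and 945 TPM for Hist2h2aa2 among H2A. They reached 716 TPM for Hist2h2bb among H2B, 349 TPM for Hist2h3b among H3 and 813 TPM for Hist1h4h among H4. The lowest tested members by TPM were Hist2h3c1 at 1.42 TPM and Hist2h2be at 3.97 TPM. Many members are near copies of each other, and the authors' program divides reads that match several of them by estimate. The median member shared 49.3% of its 50-base windows with another member, from a median of 1.1% in H1 to 73.2% in H2A. Counts of members that overlap another gene are uncertain too, such as Hist1h1e, which overlaps Hist1h2be, Hist2h2bb, which overlaps Gm42743, and Hist2h2ac and Hist1h2af, which each overlap an antisense gene.

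Histone messages summed over a class were lower on average in the LOH libraries for each of the 5 classes, and the gap was widest in organoid line 34. The plot of summed levels shows this pattern by library. Over all members the heterozygous libraries of lines 6, 23 and 34 had 7624, 6899 and 10389 CPM and the LOH libraries 6781, 6450 and 5804 CPM, so that the groups did not overlap. The log2 ratios within lines 6, 23 and 34 were -0.17, -0.10 and -0.84. The share of counts in the genes of the authors' protein-coding table moved with these sums, at 73.3%, 67.9% and 71.1% in heterozygous lines 6, 23 and 34 and 67.2%, 61.5% and 61.4% in the LOH libraries, without overlap. Its part in the result was not tested. No p-value is given for these sums, because the members were picked together with results of these data known.

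**Figure D1:**
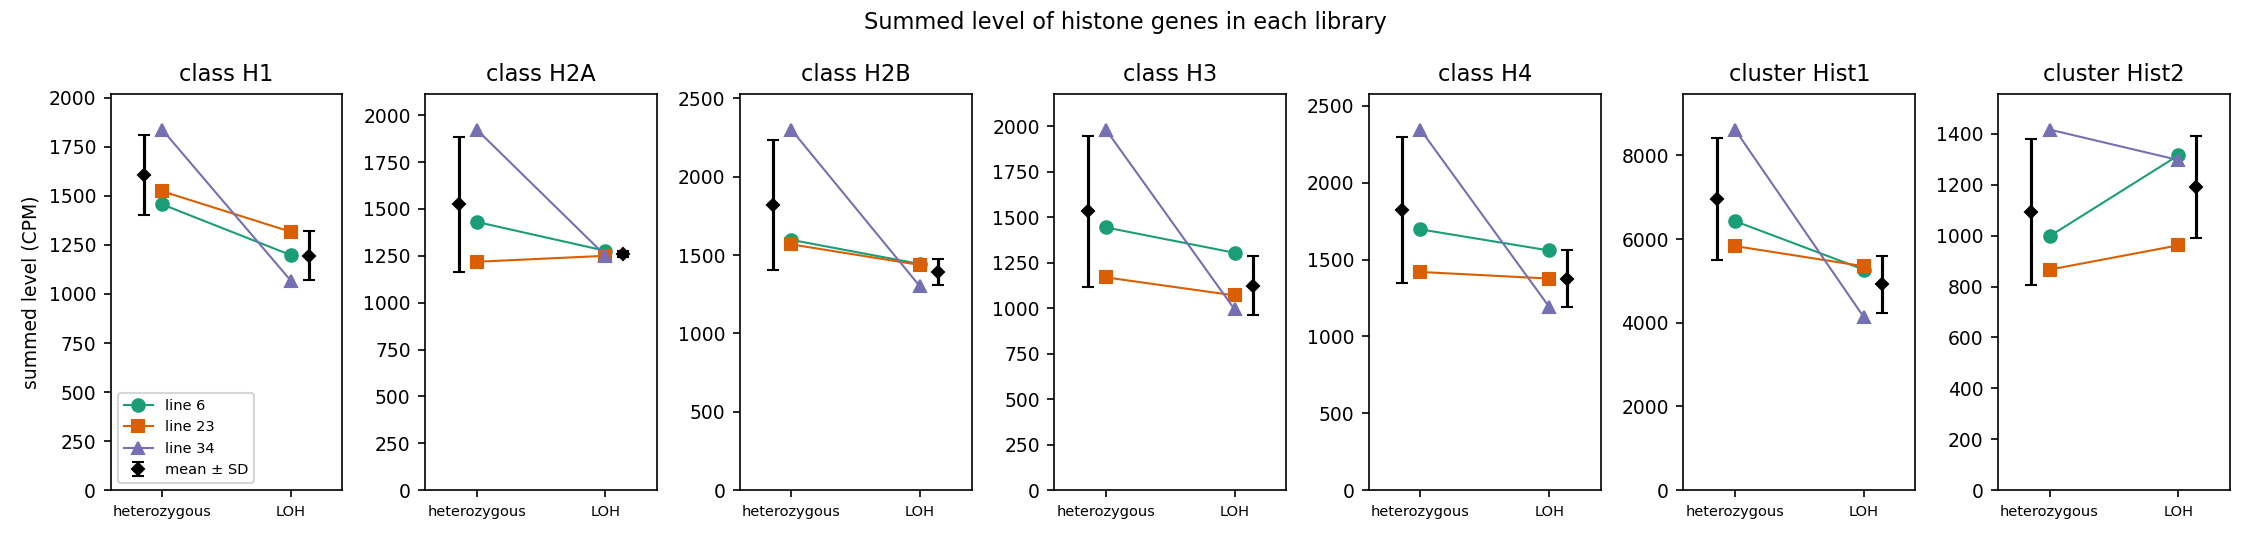
Summed level (CPM, linear axis from 0) of each histone class and of the clusters Hist1 and Hist2 in heterozygous and LOH libraries; lines join the libraries of 1 organoid line, and diamonds with bars show the mean ± SD (n = 3). The LOH libraries lie below the heterozygous ones without overlap for H1, H2B and Hist1, and line 34 has the widest gap in each class.

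For H1 the sums were 1457, 1524 and 1838 CPM in heterozygous lines 6, 23 and 34 and 1198, 1317 and 1067 CPM in the LOH libraries, a log2 ratio of the means of -0.43. The H2B sums were 1597, 1568 and 2300.2 CPM against 1443, 1436 and 1299 CPM (log2 ratio -0.39). In both classes every LOH library lay below every heterozygous library. For H2A they were 1431, 1219 and 1924 CPM against 1277, 1250.2 and 1251 CPM (log2 ratio -0.28), with a log2 ratio of 0.04 within line 23. The H3 sums were 1444, 1169 and 1981 CPM against 1304, 1070.1 and 993 CPM (log2 ratio -0.45). For H4 they were 1696, 1419 and 2345 CPM against 1559, 1376 and 1193 CPM (log2 ratio -0.40). H2A, H3 and H4 overlapped between the groups. Without both libraries of line 34 the log2 ratios were closer to 0, at -0.25 for H1, -0.07 for H2A, -0.14 for H2B, -0.14 for H3 and -0.09 for H4.

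Gene by gene, 53 of the 65 tested members (81.5%) had a log2 fold change (LOH over heterozygous) below 0, against 46% of the 14537 genes tested, and the median was -0.50 against 0.06 over all genes. Of the members, 2 passed an adjusted p of 0.05 in edgeR's quasi-likelihood test with Benjamini-Hochberg adjustment over all genes, 1 lower and 1 higher, where 5.21% of all genes passed (1.66% lower and 3.55% higher). That is 3.08% of the members, not above the background. At an unadjusted p under 0.05 there were 20 lower members (30.8%), against 10.6% of all genes, and 1 higher member, against 14.7%. In 22 members (33.8%) all 3 LOH libraries lay below all 3 heterozygous ones, against 16.5% of all genes, and in 1 they lay above, against 16.4%. All 22 were Hist1 genes, and 187 of the 553 other genes tested on chromosome 13 lay below in the same way. The direction was the same in the 3 lines for 28 members (43.1%) that were lower, against 21.6% of all genes. Of the 28 members, 27 were Hist1 genes, and 224 of the 553 other genes of chromosome 13 were also lower in the 3 lines. For members that were higher, the direction was the same in the 3 lines for 3 of the 65, against 3328 of all 14537 genes. With the organoid line as a block no member passed, and 1.47% of all genes did. At an unadjusted p under 0.05 the block left 5 members lower and 1 higher, against 8.54% and 11.5% of all genes, or 9.2% of the members in all against 20% of all genes, so that the members lay below the background there. DESeq2 called 5 members lower and 1 higher, where 13.7% of all genes with an adjusted p were called.

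**Figure D2:**
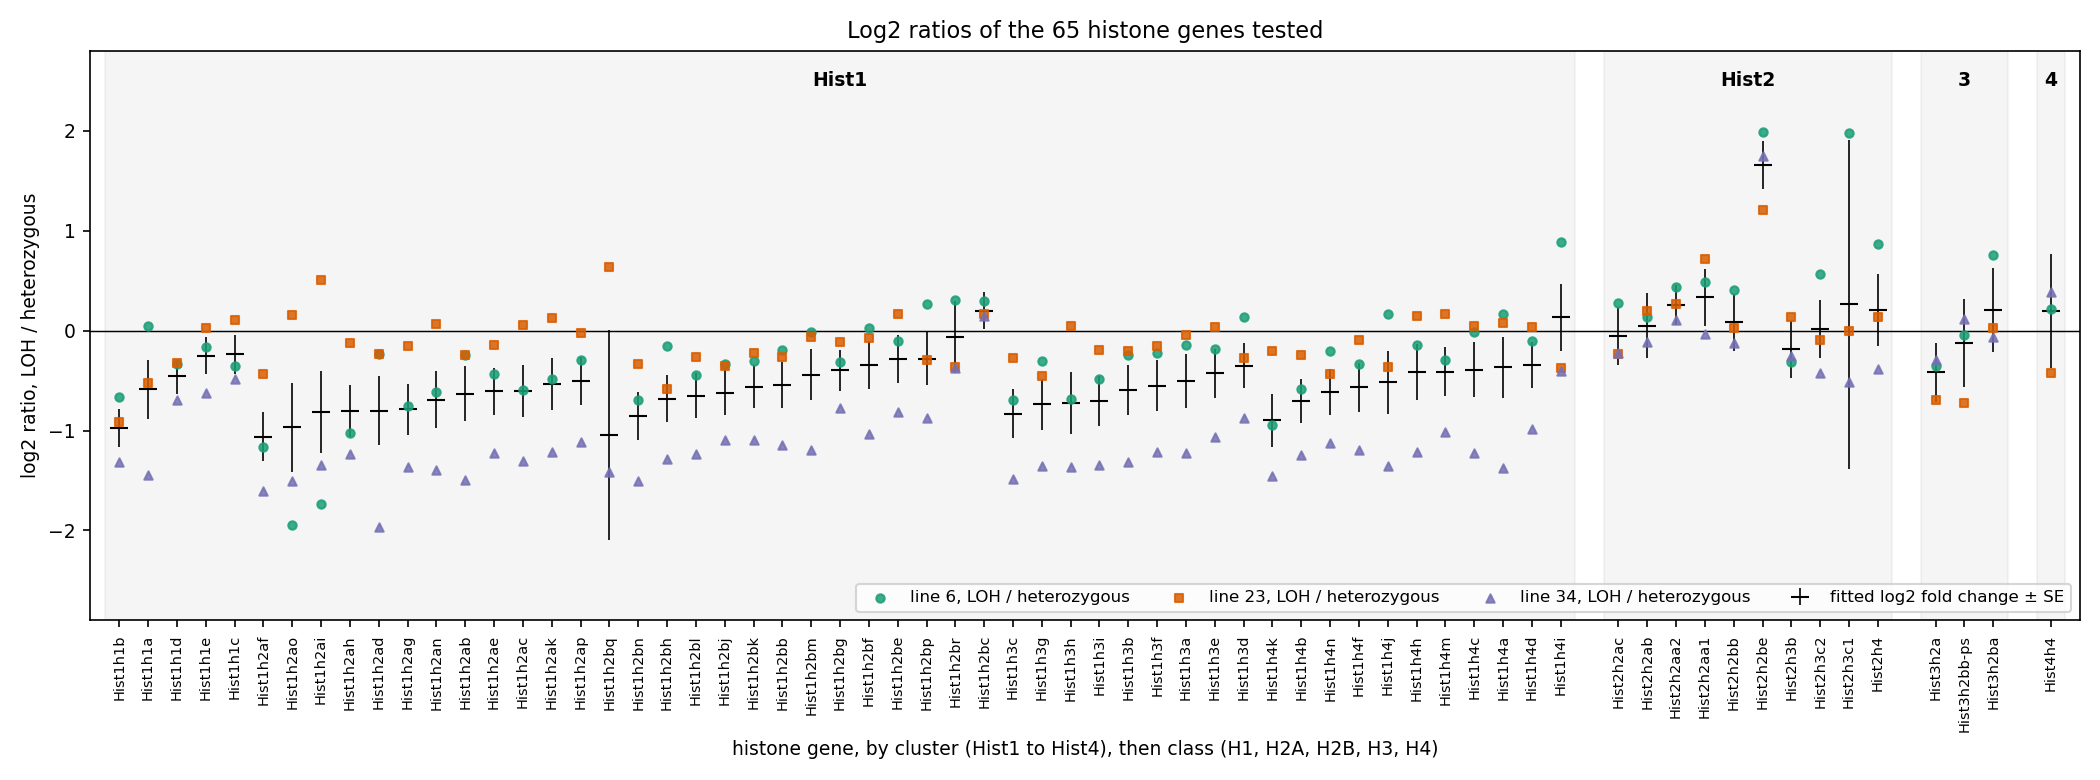
Log2 ratio of LOH over heterozygous for the 65 histone genes tested, ordered by cluster and class; coloured points are the ratios within organoid lines 6, 23 and 34, and black dashes with bars the fitted log2 fold change ± SE. Most Hist1 genes lie below 0 with line 34 lowest, while Hist2h2be is the highest of Hist2 in each line. In line 6 Hist2h3c1 is close to it, at 1.98 beside 1.99. The line 6 ratio of Hist1h2bq, at -5.09, lies outside the axis.

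Linker histone H1 binds the DNA between nucleosomes, and Hist1h1a to Hist1h1e are its somatic forms. Hist1h1b (ENSMUSG00000058773.2; chromosome 13, 21779883 to 21780625, minus strand), which encodes H1.5, had 212, 244 and 292 CPM in heterozygous lines 6, 23 and 34 and 134, 129 and 118 CPM in the LOH libraries. Each LOH library lay below each heterozygous one. The log2 fold change was -0.98 (SE 0.19, n = 3 against 3), with an edgeR adjusted p of 0.0355, and of 0.124 with the line as a block. Hist1h1b shares no 50-base window with another member, so its count does not rest on reads divided among members. The call was lost without any 1 heterozygous library (adjusted p = 0.117 to 0.198, where no gene at all passed), and without LOH line 23 (0.0667), LOH line 34 (0.0607), or both libraries of line 23 (0.225) or of line 34 (0.258).

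The other somatic H1 genes did not pass, and all lay below 0. Hist1h1d, Hist1h1e and Hist1h1c, which encode H1.3, H1.4 and H1.2, had log2 fold changes of -0.46 (adjusted p = 0.158), -0.25 (0.429) and -0.24 (0.48) in edgeR, from means of 368 ± 47.7, 411 ± 40.8 and 375 ± 42.5 CPM in heterozygous libraries (SD, n = 3). Hist1h1a, which encodes H1.1, had -0.59 (adjusted p = 0.265). As a share of all H1 counts, Hist1h1b was 14.6%, 16% and 15.9% in the heterozygous libraries of lines 6, 23 and 34 and 11.2%, 9.83% and 11% in the LOH libraries, which did not overlap. The widest Wilson 95% interval of these shares, 15.5% to 16.6%, covers counting error only, treats counts as independent reads and leaves out the spread between cultures. The share of Hist1h1e was 24.9% to 26.4% in heterozygous and 27.8% to 30.1% in LOH libraries, again without overlap. Hist1h1a took 11.9% to 13.2% and 8.31% to 15.7%, with LOH line 6 high and LOH line 34 low. These are shares of counts, not divided by model length, which was 743 bases for Hist1h1b and 7425 for Hist1h1d. Per length of the gene model, Hist1h1b was the highest H1 gene, at a mean of 332 TPM beside 44.55 TPM for Hist1h1d. That order depends on where the models end. Those of Hist1h1d, Hist1h1e and Hist1h1c run 4884, 1153 and 840 bases past the hairpin. By mean CPM Hist1h1b was at 188, below Hist1h1e at 378, Hist1h1c at 347 and Hist1h1d at 318.

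**Figure D3:**
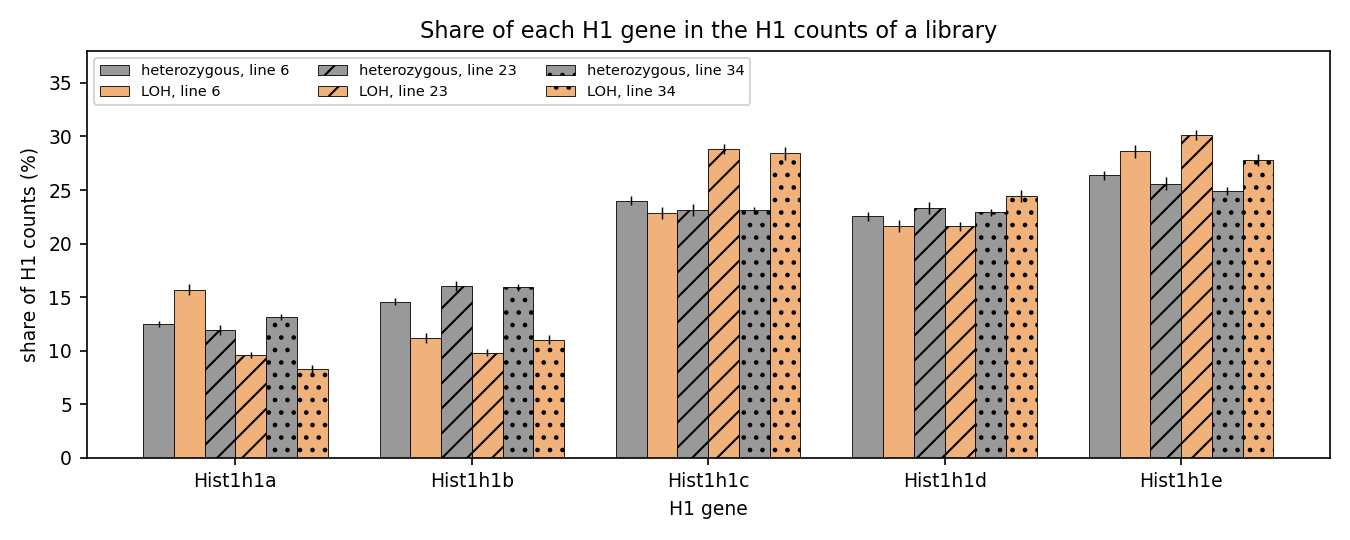
Share (%, axis from 0) of each somatic H1 gene in the H1 counts of a library, with heterozygous libraries in grey and LOH libraries in orange; hatching marks the organoid line and bars the Wilson 95% interval, which covers counting error only. Hist1h1b takes less of the H1 counts in the LOH library of each line, and Hist1h1e more. Counts are not divided by model length.

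H2A and H2B form the dimers that flank the core of the nucleosome. None of the 17 H2A genes tested passed in edgeR (5 were lower at an unadjusted p under 0.05), and 14 were below 0 with a median of -0.61. The smallest p belonged to Hist1h2af, at 58.8, 44 and 61.5 CPM in the heterozygous libraries and 26.1, 32.5 and 20.1 CPM in the LOH libraries (lines 6, 23 and 34). Its libraries did not overlap, and the log2 fold change came to -1.06 (SE 0.25), with an edgeR adjusted p of 0.0559. It shares 79.7% of its windows with another member, and DESeq2 and the test without a filter on low counts called it. The H2A gene of highest level was Hist2h2aa2, a copy of Hist2h2aa1, so that the split of reads between them is an estimate. The sum of Hist2h2aa1 and Hist2h2aa2 was 362, 355 and 520 CPM in heterozygous and 494, 453 and 548 CPM in LOH libraries, where heterozygous line 34 lay among the LOH values. Hist1h2ap, the H2A gene of Hist1 with most counts, had 255, 204 and 346 CPM against 209, 201 and 159 CPM (log2 fold change -0.50, edgeR adjusted p = 0.242). The share of H2A counts that came from Hist1 was 54.1% to 59.6% in heterozygous and 35% to 51.8% in LOH libraries, which did not overlap.

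Among the 18 H2B genes, 14 were below 0 with a median of -0.37, and Hist2h2be was called higher. Hist2h2be (ENSMUSG00000068854.7; chromosome 3, 96221119 to 96223738, plus strand) had 4.47, 6.16 and 4.61 CPM in heterozygous lines 6, 23 and 34 (134, 83 and 138 counts). In LOH lines 6, 23 and 34 it had 18, 14.3 and 15.7 CPM (309, 379 and 336 counts), all above the heterozygous libraries. The log2 fold change was 1.66 (SE 0.24, n = 3 against 3; edgeR adjusted p = 0.0208), and the adjusted p was 0.0721 with the line as a block. It shares no 50-base window with another member, and its model of 2620 bases held no stem-loop match. The call was lost without any 1 heterozygous library, where no gene passed (adjusted p = 0.0951 to 0.137), and without both libraries of line 23 (0.145) or of line 34 (0.153). It held without any 1 LOH library (0.0189 to 0.0355). As a share of H2B counts Hist2h2be was 0.2% to 0.393% in heterozygous and 0.996% to 1.25% in LOH libraries.

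The H2B genes with most counts did not pass. Hist1h2bg had 201, 230 and 272 CPM against 161, 212 and 159 CPM (log2 fold change -0.40, edgeR adjusted p = 0.273), where LOH line 23 lay among the heterozygous values. Hist2h2bb, the other H2B gene of Hist2, had 136, 125 and 218 CPM against 180, 128 and 199 CPM (log2 fold change 0.08, edgeR adjusted p = 0.881). Hist1h2bn and Hist1h2bb had log2 fold changes of -0.86 and -0.54 (edgeR adjusted p = 0.0852 and 0.198), and neither gene's libraries overlapped. Hist1h2bq was at 2.21 CPM in LOH line 6 and at 52.5 to 186 CPM in the other libraries, but it shares 97.3% of its windows with Hist1h2br, which had 124 CPM in LOH line 6. Summed, Hist1h2bq and Hist1h2br had 179, 143 and 251 CPM in heterozygous libraries and 127, 152 and 119.7 CPM in the LOH ones, which overlapped.

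**Figure D4:**
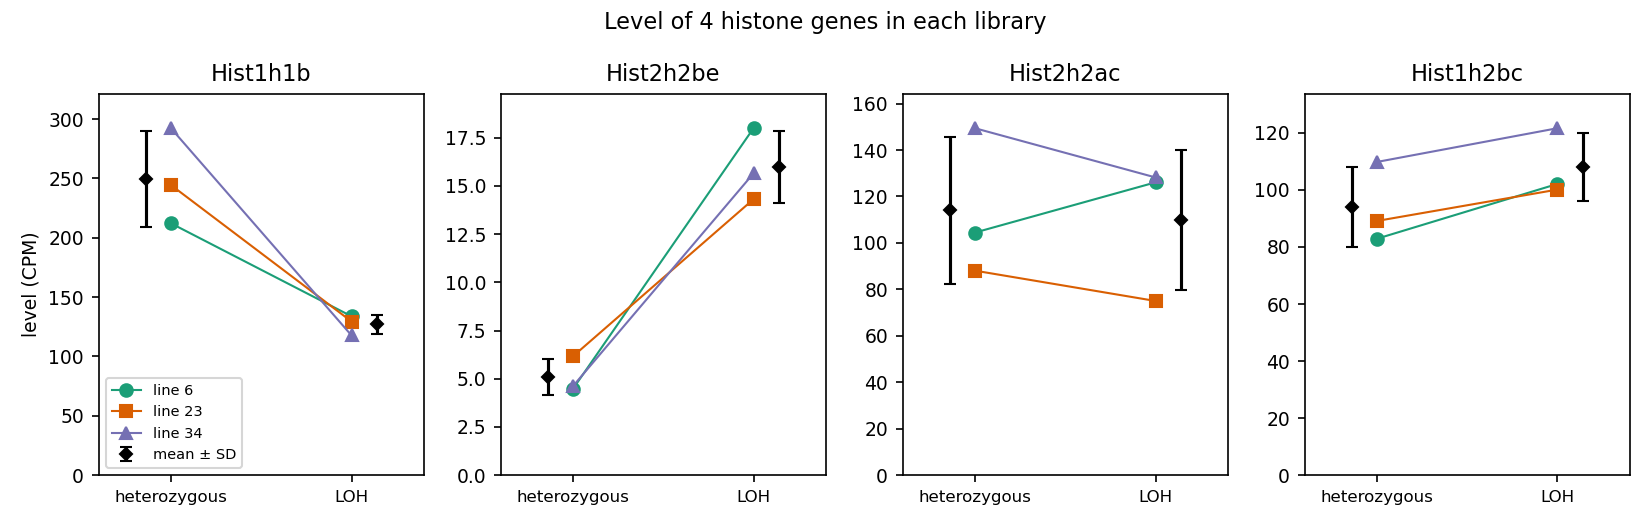
Level (CPM, linear axes from 0, scaled for each gene) of Hist1h1b, Hist2h2be, Hist2h2ac and Hist1h2bc in heterozygous and LOH libraries; lines join the libraries of 1 organoid line, and diamonds with bars show the mean ± SD (n = 3). Hist1h1b is lower and Hist2h2be higher in each LOH library, while Hist2h2ac and Hist1h2bc overlap between the groups.

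Many H2A and H2B genes stand head to head and are transcribed away from a shared gap. Of 13 pairs of members within 1000 bases, with gaps of at most 659 bases, 11 had log2 fold changes that differed by less than 0.5, and both members were below 0 in 11. The widest difference, 1.71 on the log2 scale, was between Hist2h2be and Hist2h2ac, which lie 238 bases apart and share the gap that the Hist2h2ac promoter spans. Hist2h2ac had 104, 88.1 and 149 CPM in heterozygous libraries and 126, 75.01 and 128 CPM in the LOH ones (log2 fold change -0.06, edgeR adjusted p = 0.924). The ratio of Hist2h2be to Hist2h2ac counts was 0.0428, 0.0699 and 0.0308 in heterozygous and 0.143, 0.191 and 0.122 in LOH libraries, without overlap. The next pair was Hist1h2ac and Hist1h2bc, 250 bases apart, with a difference of 0.81. Hist1h2bc had 82.9, 89.1 and 110 CPM in heterozygous libraries and 102, 100.1 and 122 CPM in the LOH ones (log2 fold change 0.20, edgeR adjusted p = 0.533), higher in each line by CPM. By TPM its log2 fold change was -0.18, where the median of all genes was itself -0.35. Hist1h2ac had a log2 fold change of -0.61 (edgeR adjusted p = 0.205). Both pairs were singled out after their values were seen, so their differences are given without a test. The models of Hist2h2be and Hist1h2bc held no stem-loop match, and those of their partners did.

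H3 and H4 form the tetramer at the core of the nucleosome. None of the 12 H3 genes passed in edgeR (5 were lower at an unadjusted p under 0.05), and 10 were below 0 with a median of -0.53. Hist2h3c2, the H3 gene with most counts, had 200.2, 177 and 300 CPM in heterozygous libraries and 297, 166 and 223 CPM in the LOH ones (log2 fold change 0.02, edgeR adjusted p = 0.979), and its direction depended on the setting. Hist1h3e had a log2 fold change of -0.43 (edgeR adjusted p = 0.312). Hist1h3f had 191, 158 and 271 CPM against 164, 142 and 117 CPM (log2 fold change -0.55, edgeR adjusted p = 0.225). Of the 13 H4 genes 10 were below 0, with a median of -0.41, and none passed in edgeR (3 were lower at an unadjusted p under 0.05). Hist1h4d had 293, 255 and 368 CPM against 274, 261 and 186 CPM (log2 fold change -0.35, edgeR adjusted p = 0.379), and Hist1h4h and Hist1h4c had log2 fold changes of -0.41 and -0.39 (edgeR adjusted p = 0.386 and 0.407). The smallest p of the class belonged to Hist1h4k, at 109, 67.4 and 118 CPM against 56.8, 58.6 and 43 CPM (log2 fold change -0.90, edgeR adjusted p = 0.0933), without overlap.

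The members differed by cluster, though not in the same way in each line. Of the 51 Hist1 genes tested, 49 were below 0, with a median of -0.57, and 22 had all LOH libraries below all heterozygous ones. Of the 10 Hist2 genes, 8 were above 0, with a median of 0.14 by CPM and of -0.22 by TPM, where the median of all genes was itself -0.35. Within lines 6, 23 and 34 the Hist2 medians were 0.46, 0.13 and -0.17, and in line 34 8 of the 10 genes were below 0. The 3 Hist3 genes had a median of -0.12, and Hist4h4 had 0.19. Summed, Hist1 had 6431, 5835 and 8619 CPM in heterozygous lines 6, 23 and 34 and 5272, 5352 and 4140 CPM in the LOH libraries, without overlap. Hist2 had 998, 866 and 1417 CPM against 1315, 962 and 1297 CPM, which overlapped. Hist1 took 83% to 84.6% of all member counts in heterozygous libraries and 77.7%, 83% and 71.3% in LOH lines 6, 23 and 34, so that line 23 showed little of the shift. The same directions were seen in the fitted values of the members that share under 25% of their windows, where the 11 Hist1 genes were all below 0 (median -0.46) and 6 of the 7 others above it (median 0.19). Hist1 genes whose model ended within 100 bases of the stem-loop (20 genes, median -0.58), ran further (16 genes, median -0.40) or held no match (15 genes, median -0.72) had medians below 0. By TPM the Hist1 median was -0.92.

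Other genes of chromosomes 13 and 3 had fitted medians on the same side of 0 as Hist1 and Hist2, though for Hist2 not in each line. The 36 other genes tested within 2 Mb of Hist1 had a median log2 fold change of -0.48, and within lines 6, 23 and 34 their medians were -0.72, -0.12 and -1.14, beside -0.30, -0.15 and -1.23 for the Hist1 genes themselves. The 553 other genes of chromosome 13 had a median of -0.29, and -0.59, -0.03 and -0.60 within the lines. The fitted log2 fold change was below 0 in 27 of the 36 and 364 of the 553, beside 49 of the 51 Hist1 genes. In each of the 3 lines 17 of the 36 and 224 of the 553 were lower, beside 27 Hist1 genes. All 3 LOH libraries lay below all 3 heterozygous ones in 16 of the 36 and 187 of the 553, beside 22 of the 51 Hist1 genes. At an unadjusted edgeR p under 0.05, 13 of the 36 and 149 of the 553 were lower, beside 20 Hist1 genes. Around Hist2, 103 genes within 2 Mb had a median of 0.33, and 0.40, 0.21 and 0.26 within lines 6, 23 and 34. The 772 other genes of chromosome 3 had 0.29, and 0.18, 0.29 and 0.27 within the lines. In line 34 the Hist2 genes themselves had a median of -0.17, on the other side of 0. With the median of the other genes of the chromosome removed in each line, the Hist1 median was -0.14, at 0.30, -0.12 and -0.63 in lines 6, 23 and 34. The Hist2 median was then -0.09, at 0.28, -0.16 and -0.45 in these lines.

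**Figure D5:**
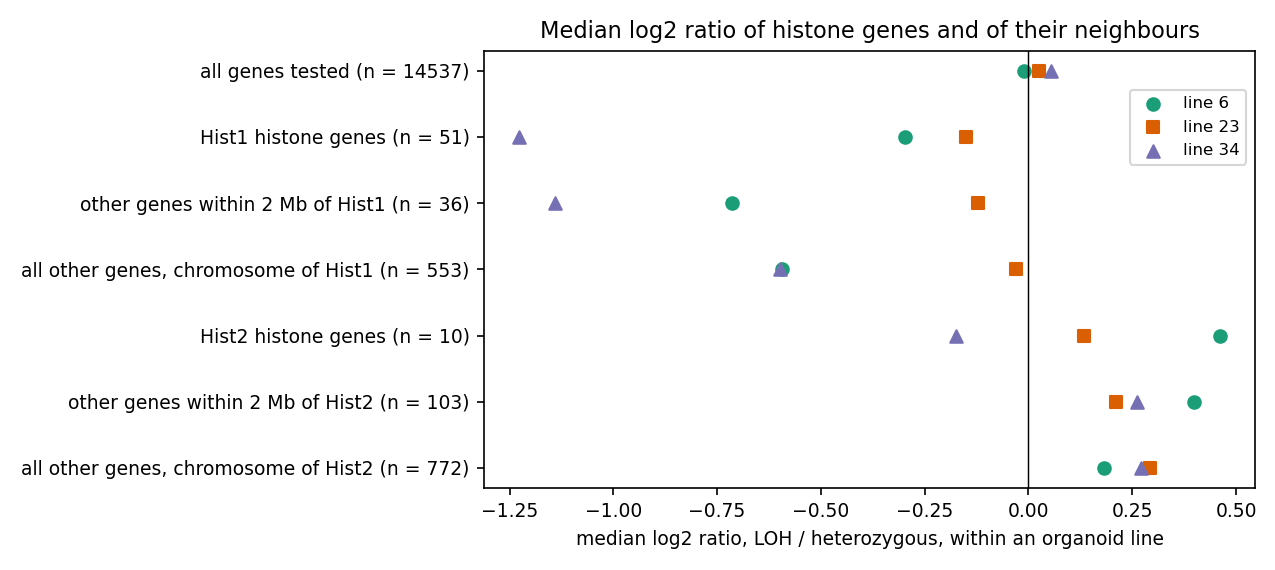
Median log2 ratio of LOH over heterozygous within organoid lines 6, 23 and 34 (points) for all genes tested, the Hist1 and Hist2 genes, other genes within 2 Mb of each cluster and all other genes of the same chromosome. The genes around Hist1 lie below 0 in the 3 lines and furthest in line 34, like the Hist1 genes, at -1.14 and -1.23.

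Histone variants encoded outside the clusters, most of them made in and outside S phase from messages with a poly(A) tail, gave no calls in edgeR, with 3 lower and 1 higher at an unadjusted p under 0.05. Over all genes 10.6% were lower and 14.7% higher at that p. Of 11 on the list 6 were below 0, against 46% of all genes, and the median was -0.02. H3f3a and H3f3b, which both encode H3.3, had edgeR log2 fold changes of 0.39 (adjusted p = 0.22) and -0.53 (0.199). H1f0, the linker histone of resting cells, had 318, 410 and 421 CPM in heterozygous libraries and 427, 515 and 666 CPM in the LOH ones (log2 fold change 0.48, edgeR adjusted p = 0.232). H2afx, the variant phosphorylated at DNA breaks, whose messages can also end in a stem-loop without a tail, had 187, 163 and 270 CPM against 154, 68.4 and 126 CPM (log2 fold change -0.83, edgeR adjusted p = 0.185). H2afz and H2afj had log2 fold changes of -0.39 and 0.08 (edgeR adjusted p = 0.364 and 0.916).

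The machinery that makes and ends histone messages was listed as 33 genes, of which 1 was lower and none higher, with a median of -0.18. Over all genes 1.66% were called lower and 3.55% higher. The lower gene was Snrpf, an Sm protein of spliceosomal and U7 particles, at 34.5, 54.1 and 47.4 CPM against 22.2, 17.1 and 23.1 CPM (log2 fold change -1.13, edgeR adjusted p = 0.0446, and 0.135 with the block). As no gene passed without any 1 heterozygous library, this call and those of Nasp, Chaf1b and Gmnn were lost there too. Slbp had 75.3, 85.1 and 97.9 CPM against 78.9, 70.5 and 55.2 CPM (log2 fold change -0.34, edgeR adjusted p = 0.347), with LOH line 6 among the heterozygous values. Npat had log2 ratios of -1.73, 0.95 and 0.96 within lines 6, 23 and 34, with a fitted log2 fold change of 0.15 (edgeR adjusted p = 0.882).

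Of 22 histone chaperones, which carry new histones to DNA, 17 were below 0 with a median of -0.49, and 2 were called lower. Over all genes 46% were below 0 and 1.66% were called lower. Nasp, which holds a reserve of H3 and H4, had 135, 143 and 156 CPM in heterozygous libraries and 72.3, 56.7 and 78.2 CPM in the LOH ones. The fitted difference was -1.07 on the log2 scale (SE 0.19, edgeR adjusted p = 0.0313, and 0.0925 with the block). Chaf1b, a subunit of the CAF-1 complex that deposits H3 and H4 behind the replication fork, had 49.9, 58.8 and 62.3 CPM against 30.2, 25.6 and 21.7 CPM. The difference for Chaf1b was -1.14 on the same scale (SE 0.20, edgeR adjusted p = 0.0312, and 0.111 with the block). Neither gene's libraries overlapped between the groups.

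Genes of S phase and DNA replication were below 0 in 38 of 40, against 46% of all genes, with a median of -0.58. Gmnn, the inhibitor of origin licensing, was the 1 called lower, against 1.66% of all genes (log2 fold change -1.15, edgeR adjusted p = 0.0428, and 0.114 with the block). The medians of these 40 genes within lines 6, 23 and 34 were -0.08, -0.93 and -1.08, whereas those of the histone members were -0.22, -0.11 and -1.14. In line 23 the replication genes had a median well below that of the histone genes, a difference that was not tested. Pcna, the sliding clamp of the replication fork, had log2 ratios of 0.11, -1.32 and -0.91 in the 3 lines. None of 16 G2 and mitosis genes passed in edgeR, with 3 lower at an unadjusted p under 0.05, against 10.6% of all genes (median -0.43). Mki67, a marker of cycling cells, had 395, 64.8 and 131 CPM against 64.6, 403 and 564 CPM, with LOH lower in line 6 and higher in lines 23 and 34 (log2 fold change 0.80, edgeR adjusted p = 0.587). The directions of Mki67 by line were shared by genes outside that list. Among them were Npat, Casp8ap2, Zcchc11, Pou2f1, the replication gene Pola1 and the chaperone genes Atrx and Ubn2. Slbp and Pcna were among the genes that did not share them. The log2 ratios in lines 6, 23 and 34 were -2.68, 2.70 and 1.76 for Casp8ap2 and -2.95, 3.20 and 3.63 for Atrx. The medians of the 16 G2 and mitosis genes were -0.21, -0.99 and -0.48 within these lines. Of those 16 genes, 11 were below 0 in line 23 and 12 in line 34. The cause of the pattern shared with Mki67 was not tested. The part of the share of cycling cells in the histone levels was not tested.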

How the data were processed

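The authors deposited gene and transcript tables for 6 total RNA libraries from a stranded kit, per the labels' protocols. The submitters' processing notes name STAR 2.5.2b, RSEM 1.3.0, FastQC 0.11.5, DESeq2 1.44.0 and GRCm38.p5, and the file names name GENCODE release 16. The strand setting is not given in the sources used here, so overlapping genes are uncertain. Expected counts are the authors' estimated counts, with shared reads divided among copies. The deposited TPM values are per length and depth. The deposited normalized signal, expected counts over a size factor, served to list the 67 members and the protein-coding genes. Deposited FPKM and IsoPct percent values were not analysed.

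Expected counts were rounded, filtered with filterByExpr (14537 genes), scaled by TMM and tested two-sided with edgeR 4.0.16 in R 4.3.3 (quasi-likelihood, Benjamini-Hochberg, 0.05). SE is the log2 fold change over the square root of F, and ratios within lines are differences of log2 CPM with a prior count of 2. Sums were computed from CPM. Alternatives tried were scaling by RLE or by the upper quartile, filtering not at all or on 10 counts in every library, protein-coding genes only, the line as a block, each library or line left out, DESeq2 1.42.0, and limma 3.58.1 on log2(TPM + 1) and log2(TPM + 0.1). Near copies summed, members with few shared windows only, and chromosome medians removed were added after seeing the data. Same-numbered libraries come from 1 organoid line by their titles, which pairs them. Their deviations from the group means correlated at -0.29, 0.01 and 0.29 in lines 6, 23 and 34. Coordinates and 50-base windows came from GENCODE release 21 (GRCm38), matched for all 67 members, and promoters from RefSeq (GRCm38.p6).

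The members, lists and tests were chosen with earlier results of these data known. Named members were the 3 of each class with the highest mean CPM, each with an adjusted p under 0.05, and the 4 with the smallest p in either direction; Slbp, Npat, Mki67, Pcna, H2afz, H2afx, H2afj, H3f3a, H3f3b and H1f0 were always named, with list genes under 0.05. Others were named after their values were seen. The main edgeR test, without a block, was tried on simulated data, and the other fits were not. Python 3.11.15, pandas 2.3.3 and matplotlib 3.10.9 made tables and figures.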

Additional observations from a re-analysis of the deposited data

Results flagged for a closer look

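Of 41 values checked, 19 had log2 ratios of LOH over heterozygous on both sides of 0 in the 3 organoid lines. Each line has 1 library of either genotype, so these differences between lines were not tested. Among sums, the spread from lowest to highest line came to 0.66 (log2) for H2A, 0.53 for Hist2 and 0.81 for Hist4. Among Hist1 genes it was 0.59 for Hist1h1c, 0.65 for Hist1h1e, 1.102 for Hist1h3e, 1.28 for Hist1h4c, 1.02 for Hist1h4d and 1.36 for Hist1h4h, each above 0 in line 23 alone, at 0.15 or less. Among Hist2 genes it was 0.76 for Hist2h2aa1, 0.50 for Hist2h2ac, 0.53 for Hist2h2bb and 0.996 for Hist2h3c2. Among genes outside the clusters it was 0.89 for Slbp, 1.42 for Pcna, 1.05 for H2afz, 1.52 for H2afj, 2.70 for Npat and 5.25 for Mki67. Slbp, Pcna and H2afz were above 0 in line 6 alone, and Npat and Mki67 below 0 in line 6 alone.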

How the results depend on the processing

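The 2 calls among the members, Hist1h1b lower and Hist2h2be higher, were kept under RLE and upper quartile scaling, with at least 10 counts in every library, with protein-coding genes only and with near copies summed. The number called was 0 with the replicate block, 6 with DESeq2, and 21 and 20 with limma on log2(TPM + 1) and log2(TPM + 0.1), where the median of all genes was -0.35 and -0.42. It ran from 0 to 2 with a library or line left out. Over all genes 757 of 14537 were called (5.21%), against 213 with the block (1.47%) and 2249 of 16449 with DESeq2 (13.7%). Limma on log2(TPM + 1) and log2(TPM + 0.1) called 1911 and 1753 of 11918 genes, beside 21 and 20 of the 65 members. With a library or line left out, 0 to 2449 genes were called. In the edgeR fits that called 0 genes, without any 1 heterozygous library or without line 23 or 34, 2097 to 2966 genes had an unadjusted p under 0.05. The block lost both member calls and changed no other call among the members named.

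The medians of the members and of the 5 classes stayed below 0 in all these settings, except for H2B with members sharing under 25% of their windows only (0.08). With a library or line left out, the median of all members ran from -0.65 to -0.20, and that of H1 from -0.56 to -0.21. The H1 median was -0.82 and -0.84 with limma on log2(TPM + 1) and log2(TPM + 0.1), and -0.043 with chromosome medians removed in each line. With chromosome medians removed, the median of all members moved from -0.50 to -0.14, and 44 of the 65 were below 0. Within lines 6, 23 and 34 that median was 0.29, -0.16 and -0.61, so line 6 lay on the other side of 0. From summed TPM the log2 ratio was -0.92 for H1, -0.69 for H2A, -0.79 for H2B, -0.88 for H3 and -0.88 for H4. The TPM scale itself was shifted, with a median of all genes of -0.35 in limma on log2(TPM + 1), against 0.06 in the main edgeR fit.

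Only genes that had missed the threshold reversed. In the limma fits, where several of them did so, the median of all genes was itself -0.35 for log2(TPM + 1) and -0.42 for log2(TPM + 0.1). With limma on log2(TPM + 1) and log2(TPM + 0.1), the log2 fold change was -0.18 and -0.18 for Hist1h2bc, -0.11 and -0.11 for Hist2h2aa2, -0.27 and -0.27 for Hist2h2bb, -0.37 and -0.37 for Hist2h3c2, -0.28 and -0.35 for Npat and -0.49 and -0.51 for H2afj. Hist2h3c2 was also at -0.0032 with upper quartile scaling, -0.026 without a filter and -0.0095 with DESeq2, and H2afj at -0.041 with the block. With a library or line left out, the values ran from -0.64 to 0.013 for Hist1h4c, from -0.26 to 0.18 for Hist2h2ac, from -0.10 to 0.37 for Hist2h2bb, from -0.33 to 0.29 for Hist2h3c2, from -0.41 to 0.93 for Npat and from -0.35 to 0.41 for H2afj. The cause of these shifts was not tested. Depth limits the lowest members, such as Hist2h3c1 at a mean of 2.42 CPM, and reads divided among copies add error that the counts do not show.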
